A study of Mus musculus with 12 samples.

Results

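Tusc3, Hspa12a, Snhg11, Anxa8 and Mycl are 5 of the 38924 genes counted in the interscapular brown fat of mice kept at 30, 22 or 6 °C. They were picked for large, consistent falls toward the cold in these same libraries. Their levels and fold changes are therefore given here as a description, with no test. All 5 were among the 14870 genes that passed the filter on low counts. The 12 libraries came from wild-type C57BL/6J mice, 1 library per mouse, which spent 4 weeks at their temperature and were 14 weeks old at sampling. Of these, 4 lived at 30 °C, called thermoneutral in the labels, 4 at 22 °C, room temperature, and 4 at 6 °C, severe cold. The design asks how the depot's transcripts differ after adaptation to each temperature. For these genes the question was whether the fall was already complete at 22 °C or came only at 6 °C.

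Brown fat is a heat-making tissue. Sympathetic nerves drive it through beta-adrenergic receptors, and its adipocytes burn fuel through uncoupling protein 1 (Ucp1) when the animal is below thermoneutrality. Against that well-studied programme, the 5 genes have little described role in the tissue and belong to unrelated families. Tusc3 is a thioredoxin-like subunit of the oligosaccharyltransferase, the enzyme that attaches sugar chains to asparagines of proteins entering the secretory pathway, and it has also been linked to magnesium uptake. Hspa12a is a distant member of the HSP70 chaperone family. Snhg11 is a spliced transcript that hosts small nucleolar RNAs in its introns. Anxa8 is an annexin, a protein that binds membrane phospholipids when calcium is present. Mycl encodes L-Myc, a transcription factor that pairs with Max like the other Myc proteins, and in the mouse immune system it is known as a dendritic cell gene.

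Library totals lay between 18290162 and 32513051 counts, except for 22 °C mouse 3 with 86438386, whose library code also stands apart from the others. Of the 30 °C columns, 2 match no numbered mouse of the labels. Only the letter of their names placed them at 30 °C, and they are named mice A and B here. Ucp1, the defining marker of brown adipocytes, was read at 692.3, 2048, 1644 and 1492 CPM (the read count scaled to library size, here with TMM normalisation) in 30 °C mice 1, 2, A and B, at 4461, 3775, 1967 and 3288 CPM in 22 °C mice 1 to 4, and at 10300, 9654, 11950 and 9846 CPM in 6 °C mice 1 to 4. Its level was high in every library, and the 6 °C libraries stood above all others. The median log2 fold change of all tested genes was -0.11 for 6 °C against 30 °C, -0.02 for 22 °C against 30 °C and -0.03 for 6 °C against 22 °C.

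The 5 genes lie on 5 chromosomes of GRCm38. Tusc3 (ENSMUSG00000039530) spans chr8:39005845-39165114 on the plus strand with 3432 bases of exon. Hspa12a (ENSMUSG00000025092) spans chr19:58795750-58943654 on the minus strand with 9192 bases of exon, of which 1.81% lie under Eno4 on the other strand. Snhg11 (ENSMUSG00000044349) spans chr2:158375638-158386145 on the plus strand with 8521 bases of exon. GENCODE files it as protein-coding and RefSeq as a long non-coding RNA. The snoRNA genes Gm25129 and Gm25187 lie inside it on the same strand. Of its exon bases 1.56% lie under a gene of the same strand. Anxa8 (ENSMUSG00000021950) spans chr14:34085981-34100571 on the plus strand with 1880 bases of exon, inside the opposite-strand gene A630023A22Rik, whose exons it does not share. Mycl (ENSMUSG00000028654) spans chr4:122995652-123002485 on the plus strand with 4038 bases of exon. Whether the libraries keep strand is unstated, and without strand the reads of a gene and of one that overlaps it on the other strand cannot be told apart.

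RefSeq (GRCm38.p6) gives a promoter window, 250 bases before to 50 bases after a start site, for Hspa12a, Snhg11, Anxa8 and Mycl, but not for Tusc3. The windows are shown because these genes all fell toward the cold, but at different steps. Capitals mark matches to 6 motifs searched on both strands. They were TATAAA, the core of a TATA box, CCAAT, the box of that name, GGGCGG, a GC box, CACGTG, an E-box, AGGTCA, a half-site of nuclear receptors, and TGACG, a half-site of the cAMP response element. A match on the other strand reads CCGCCC for the GC box and CGTCA for the cAMP half-site. Of Hspa12a the inner of 2 start sites is printed. Each window reads 5′ to 3′ on the strand of its gene.
Hspa12a, chr19:58860935-58861234, minus strand: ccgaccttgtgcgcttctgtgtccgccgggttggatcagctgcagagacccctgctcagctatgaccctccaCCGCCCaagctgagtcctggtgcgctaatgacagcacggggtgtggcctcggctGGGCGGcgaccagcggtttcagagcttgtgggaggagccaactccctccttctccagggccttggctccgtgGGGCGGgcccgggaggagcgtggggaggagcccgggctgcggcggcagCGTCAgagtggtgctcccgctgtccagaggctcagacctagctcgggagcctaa
Snhg11, chr2:158375463-158375762, plus strand: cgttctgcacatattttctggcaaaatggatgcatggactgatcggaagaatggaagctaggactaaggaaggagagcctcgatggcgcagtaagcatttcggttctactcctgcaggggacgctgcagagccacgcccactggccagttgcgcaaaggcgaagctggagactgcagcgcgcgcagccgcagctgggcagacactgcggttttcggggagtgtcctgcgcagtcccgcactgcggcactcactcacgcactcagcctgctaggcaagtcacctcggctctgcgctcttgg
Anxa8, chr14:34085729-34086028, plus strand: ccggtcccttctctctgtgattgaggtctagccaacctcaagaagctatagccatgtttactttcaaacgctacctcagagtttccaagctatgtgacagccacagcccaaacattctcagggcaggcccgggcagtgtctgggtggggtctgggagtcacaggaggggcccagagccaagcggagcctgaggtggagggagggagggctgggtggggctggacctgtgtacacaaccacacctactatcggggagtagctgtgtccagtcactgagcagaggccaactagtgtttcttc
Mycl, chr4:122995681-122995980, plus strand: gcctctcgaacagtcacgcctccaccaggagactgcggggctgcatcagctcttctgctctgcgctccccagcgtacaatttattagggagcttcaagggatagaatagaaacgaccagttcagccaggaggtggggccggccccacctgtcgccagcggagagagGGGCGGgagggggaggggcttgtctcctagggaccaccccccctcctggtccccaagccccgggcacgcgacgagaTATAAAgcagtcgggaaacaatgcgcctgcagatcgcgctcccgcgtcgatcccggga
None of the matches overlaps another motif. The inner Hspa12a window holds 3 GC boxes, at -178, -124 and -52 from the start, and a TGACG at -4. The outer one, chr19:58943623-58943922, holds a TGACG at -229. The Mycl window holds a GC box at -84 and a TATAAA at -8. Snhg11 and Anxa8, whose 12 values were the most alike of any 2 of the 5 genes (given further on), had no match to any of the letters searched. Over all 32851 windows of the same length, GGGCGG was present in 35.7% of windows, TGACG in 20.8% of them, TATAAA in 13.6%, the CCAAT box in 37.4%, the E-box in 7.15% and AGGTCA in 16.3%. The windows also differed in CpG pairs, with 21 in the inner Hspa12a window, 21 in Snhg11, 22 in Mycl and 5 in Anxa8, where 75.2%, 75.2%, 76.9% and 38% of all windows have fewer.

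Tusc3 was the gene that was already low at 22 °C. It was read at 130, 165, 160 and 129 CPM in 30 °C mice 1, 2, A and B, at 13, 23, 18.2 and 17.5 CPM in 22 °C mice 1 to 4, and at 11.9, 13.1, 13.5 and 12.3 CPM in 6 °C mice 1 to 4. Every 30 °C library stood far above every colder one, while the 22 °C and 6 °C libraries overlapped through 22 °C mouse 1. The 22 °C level was 8.17-fold below the 30 °C level (log2 fold change -3.03, SE 0.15), and 6 °C was 11.5-fold below 30 °C (-3.52, SE 0.15). From 22 °C to 6 °C the log2 fold change was -0.49 (SE 0.14). Thus 12.2% of the mean 30 °C level was left at 22 °C and 8.71% at 6 °C, and 86.1% of the whole log2 fall was reached at 22 °C. In a piece of whole tissue, fewer cells of a type and less RNA per cell cannot be told apart, which holds for all values here.

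Hspa12a, the HSP70 relative, fell in 2 even steps. Its level was 74.8, 77.9, 65.5 and 61.9 CPM in 30 °C mice 1, 2, A and B, 31.6, 27.7, 32.7 and 27.1 CPM in 22 °C mice 1 to 4, and 10.3, 12.2, 11.2 and 12.4 CPM in 6 °C mice 1 to 4. The 3 temperatures formed separate bands with no overlap, and no library of a band was more than 1.26 times another of the same band. The 22 °C level was 2.35-fold below 30 °C (log2 fold change -1.23, SE 0.10), and 6 °C was 2.59-fold below 22 °C (-1.37, SE 0.10). The 2 steps differed by -0.14 (SE 0.17), an estimate whose sign turned with total-count scaling (0.05). Of the mean 30 °C level 42.5% was left at 22 °C and 16.4% at 6 °C, 6.08-fold lower. It had the smallest pooled SD within a temperature of the 5 genes, 0.14 on the log2 scale.

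Snhg11, the snoRNA host, began to fall at 22 °C and lost most of its level at 6 °C. It was read at 68, 64.6, 57.6 and 61.5 CPM in 30 °C mice 1, 2, A and B, at 21.1, 44.7, 38 and 30.2 CPM in 22 °C mice 1 to 4, and at 3.49, 4.78, 2.87 and 4.35 CPM in 6 °C mice 1 to 4. The groups did not overlap at either step, though the 22 °C libraries spread over 2.12-fold, with mouse 1 lowest. The first step was 1.88-fold (log2 fold change -0.91, SE 0.20, 22 °C against 30 °C) and the second 8.66-fold (-3.11, SE 0.23, 6 °C against 22 °C). Of the mean 30 °C level 53.2% was left at 22 °C and 6.15% at 6 °C, which is 16.3-fold below 30 °C. The snoRNA genes inside it held almost no reads: Gm25129 had 1, 8 and 0 counts over the 4 libraries of 30, 22 and 6 °C, and Gm25187 had 0.

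Anxa8, the annexin, was at its lowest at 6 °C. Its level was 39, 17.6, 12.2 and 14.2 CPM in 30 °C mice 1, 2, A and B, 5.99, 16.9, 16.3 and 13.7 CPM in 22 °C mice 1 to 4, and 0.934, 2.31, 0.955 and 0.367 CPM in 6 °C mice 1 to 4. The 22 °C and 30 °C libraries overlapped, with 30 °C mouse 1 well above and 22 °C mouse 1 well below the other 6. All 6 °C libraries lay below every other one. The log2 fold change was -0.64 (SE 0.48) for 22 °C against 30 °C, and -3.48 (SE 0.57), 11.1-fold lower, for 6 °C against 22 °C. Without 6 °C mouse 2 the value for 6 °C against 22 °C was -4.09, or 17-fold, and without 30 °C mouse 1 that for 22 °C against 30 °C was -0.14. For 6 °C against 30 °C it was -4.12 (SE 0.58), 17.4-fold lower, and between -4.73 without 6 °C mouse 2 and -3.62 without 30 °C mouse 1. The gene was still present at 6 °C, at 23, 69, 27 and 7 counts. These counts are few, and the 6 °C libraries differed by 6.28-fold among themselves. The opposite-strand gene A630023A22Rik held 3, 14 and 11 counts over the libraries of 30, 22 and 6 °C.

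Mycl, the gene of L-Myc, was at its lowest at 6 °C, and its 22 °C and 30 °C levels could not be told apart. It was read at 12.2, 11.2, 34.9 and 7.5 CPM in 30 °C mice 1, 2, A and B, at 3.81, 23.9, 24.7 and 18.7 CPM in 22 °C mice 1 to 4, and at 2.72, 1.67, 1.13 and 1.73 CPM in 6 °C mice 1 to 4. The 22 °C and 30 °C libraries overlapped broadly, with 30 °C mouse A highest of all and 22 °C mouse 1 close to the 6 °C range. The 6 °C libraries all lay below the rest. The log2 fold change was 0.12 (SE 0.58) for 22 °C against 30 °C, -3.30 (SE 0.68), 9.87-fold lower, for 6 °C against 22 °C, and -3.19 (SE 0.67), 9.11-fold lower, for 6 °C against 30 °C. Without 30 °C mouse A the last of these was -2.51, or 5.7-fold. The value for 22 °C against 30 °C had no stable sign. It was 0.79 without 30 °C mouse A, but -0.13 without mouse B, -0.11 without 22 °C mouse 3 and -0.13 by total counts alone. Mycl had the widest scatter of the 5 genes, a pooled SD of 0.96 on the log2 scale.

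**Figure D1:**
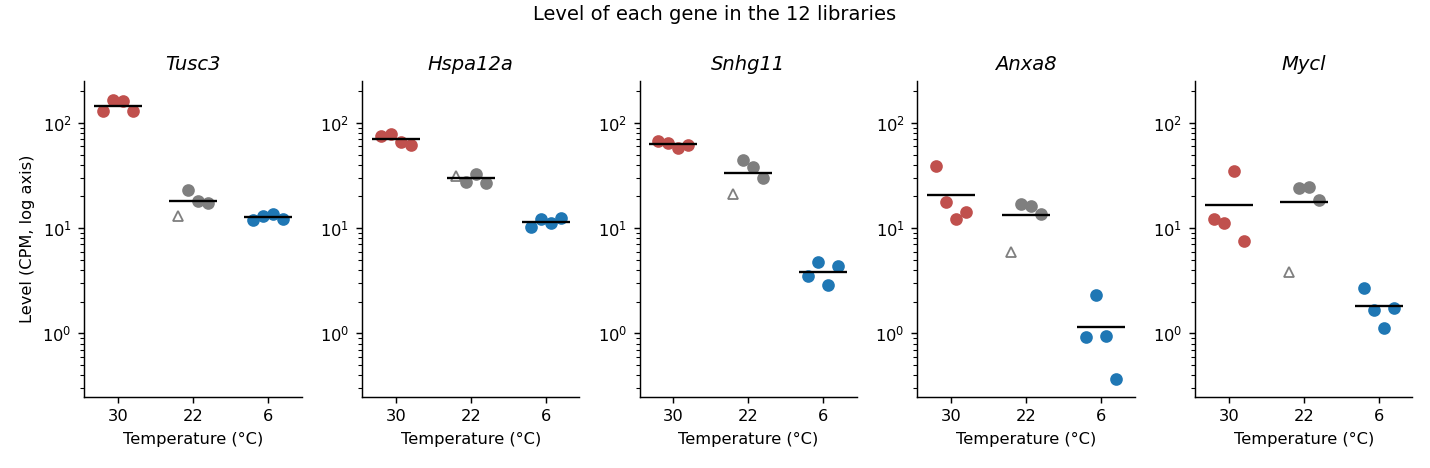
Level of each gene in each library (CPM, log axis) against temperature, from 30 to 22 to 6 °C, with 1 point per mouse, a black line at the mean of 4 mice and an open triangle for 22 °C mouse 1. Tusc3 drops at 22 °C, Hspa12a drops at both steps, and Snhg11, Anxa8 and Mycl reach their lowest level at 6 °C, where no library overlaps the warmer ones.

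All 5 genes had every 6 °C library below every 30 °C library, which 27.4% of all tested genes did. For 22 °C against 30 °C this held for 3 of the 5 (all but Anxa8 and Mycl), with 20% over all tested genes, and for 6 °C against 22 °C it held for 4 (all but Tusc3), with 17.1% over all. A fall of at least 2-fold was estimated for 5, 2 and 4 of them, where 14.1%, 10.2% and 5.61% of all tested genes had one in the same comparisons. These counts rest on the contrasts the genes were picked from, so nothing is read from them. Ranked by the size of the fall at 6 °C against 30 °C, Anxa8 stood 17th, Snhg11 20th, Tusc3 32nd, Mycl 49th and Hspa12a 111th of 14870. For 6 °C against 22 °C Anxa8 stood 8th, Mycl 10th and Snhg11 16th, with Hspa12a 353rd and Tusc3 2585th. For 22 °C against 30 °C Tusc3 stood 129th, Hspa12a 1119th, Snhg11 1701st, Anxa8 2580th and Mycl 9178th.

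Set side by side, the share of the log2 fall reached at 22 °C was 86.1% for Tusc3, 47.2% for Hspa12a, 22.6% for Snhg11, 15.6% for Anxa8 and -3.63% for Mycl. With each library left out in turn it ran from 82.6% to 90% for Tusc3, from 45.6% to 49.6% for Hspa12a and from 18.4% to 26.6% for Snhg11. For Anxa8 it ran from 3.97% without 30 °C mouse 1 to 19.3% without mouse A. For Mycl it ran from -31.6% without 30 °C mouse A to 3.71% without mouse B. The order of the last 3 genes was the same in each of these fits, but the sizes of their shares depended on single libraries. Without 30 °C mouse 1 the shares of Anxa8 and Mycl came close, at 3.97% and 0.0567%. The second step minus the first was 2.54 (SE 0.26) for Tusc3, -2.21 (SE 0.35) for Snhg11, -2.83 (SE 0.85) for Anxa8 and -3.42 (SE 1.02) for Mycl on the log2 scale. The ranges of 1 SE around Snhg11, Anxa8 and Mycl overlapped, and those of Tusc3 and Hspa12a lay apart from them and from each other. In 4 of the 5 genes 22 °C mouse 1 was the lowest 22 °C library, by -0.43 on the log2 scale from its group's mean for Tusc3, -0.61 for Snhg11, -1.03 for Anxa8 and -1.89 for Mycl. In Hspa12a it was 0.09 above. The same mouse had the highest Ucp1 level at 22 °C. Mouse 2, next in Ucp1 at 3775 CPM, had the highest Tusc3, Snhg11 and Anxa8 levels at 22 °C. Whether Ucp1 and these genes go together between mice was not tested.

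**Figure D2:**
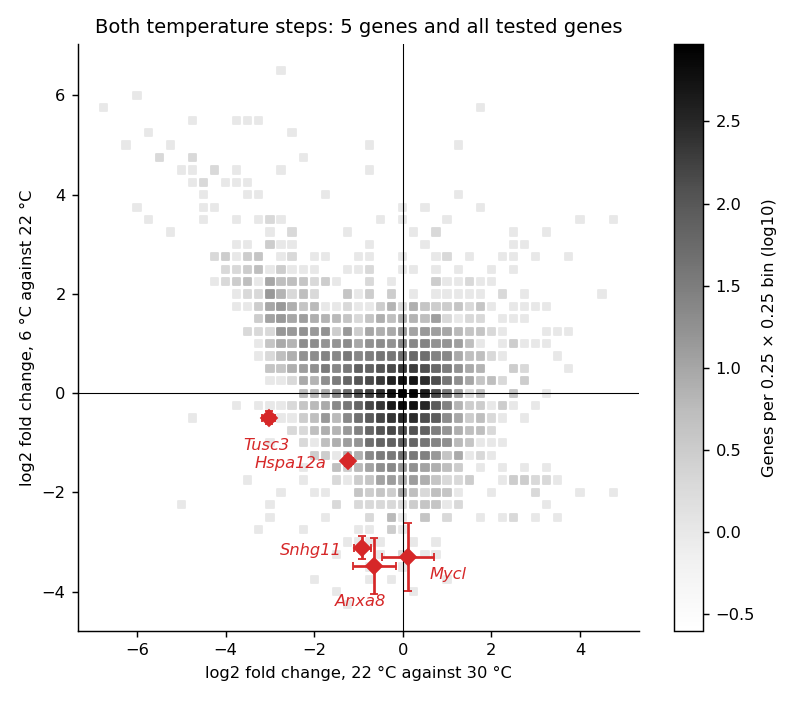
The log2 fold change of 22 °C against 30 °C (x axis) and of 6 °C against 22 °C (y axis) for the 5 genes (red, bars of 1 SE), over the number of tested genes per bin (grey). Tusc3 lies far left at -3.03 and -0.49, Hspa12a near the diagonal at -1.23 and -1.37, and Snhg11, Anxa8 and Mycl at the bottom, between -3.48 and -3.11 on the y axis.

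Per length, Tusc3 stood highest at 30 °C. Its mean was 42.6 RPKM (read count scaled to exon length and library size), against 11 for Anxa8, 7.62 for Hspa12a, 7.39 for Snhg11 and 4.07 for Mycl. Neighbours in this order after Tusc3 overlapped in their libraries. At 22 °C the order was Anxa8 at 7.04 RPKM, Tusc3 at 5.22, Mycl at 4.4, Snhg11 at 3.93 and Hspa12a at 3.24, where the libraries of neighbours in the order overlapped. At 6 °C Tusc3 was again highest at 3.71 RPKM and Hspa12a followed at 1.25, with no overlap between them, while Anxa8 at 0.607, Snhg11 at 0.455 and Mycl at 0.449 overlapped, and Anxa8 reached into the range of Hspa12a.

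The genes with the most similar profile were found by the root mean square difference (RMS) of the 12 log2 CPM values, each centred on its gene's mean. The search covered 12182 tested genes that averaged 1 CPM or more, without the 5 genes and without genes that have only a clone or predicted name. For Tusc3 the nearest were Clu, a secreted chaperone (RMS 0.45), the mitochondrial transfer RNA gene mt-Tm (0.45) and Cpne7, a calcium-dependent membrane-binding copine (0.46). Clu averaged 158 ± 42.8 CPM at 30 °C, 22.6 ± 5.75 at 22 °C and 16.4 ± 4.83 at 6 °C (SD, n = 4 each). For Hspa12a they were Gfra4, a receptor subunit of the GDNF family (0.18), the sulfotransferase gene Chst7 (0.25) and the organic cation transporter gene Slc22a4 (0.26). Gfra4 averaged 11.5 ± 0.801 CPM at 30 °C, 5.3 ± 0.775 at 22 °C and 2.07 ± 0.244 at 6 °C, in separate bands like those of Hspa12a.

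Snhg11 and Anxa8 had the same 3 nearest genes: Strip2, which encodes a striatin-interacting protein, Cdsn, which encodes corneodesmosin, and Acat3, an acetyl-CoA acetyltransferase gene whose reads may be shared with its close copy Acat2. Their RMS from Snhg11 was 0.40, 0.49 and 0.50, and from Anxa8 0.62, 0.75 and 0.69. Strip2 averaged 20.5 ± 5.83 CPM at 30 °C, 12.4 ± 3.04 at 22 °C and 1.55 ± 0.506 at 6 °C. For Mycl the nearest were Nfe2l3, a transcription factor gene of the NRF family (0.78), Cish, a feedback inhibitor of cytokine receptors (0.78), and Hey2, a transcriptional repressor downstream of Notch (0.79). Cish averaged 119 ± 28 CPM at 30 °C, 108 ± 75.7 at 22 °C and 17.9 ± 12.6 at 6 °C. Among the 5 genes themselves, Snhg11 and Anxa8 were the closest pair (0.66) and Tusc3 and Mycl the farthest (1.53).

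Families and pathways of the 5 genes were read from 7 lists that leave the 5 genes themselves out. Of 96 tested genes on these lists, 28 were higher and 21 lower at 6 °C than at 30 °C at an adjusted p under 0.05 (edgeR's quasi-likelihood test, Benjamini-Hochberg over all tested genes). Over all tested genes 56.8% were called, 25.3% higher and 31.5% lower, the shares to set beside each list below. For 22 °C against 30 °C 20 were higher and 17 lower, with 21.8% and 22.8% over all (44.6% called). For 6 °C against 22 °C 21 were higher (13 without 6 °C mouse 2) and 13 lower, with 16.9% and 17.4% over all (34.2% called). For the difference of the steps 12 were higher and 9 lower, with 14.3% and 15% over all (29.3% called). These splits depend on the scaling: by total counts alone, which moved the median of all genes to -0.43 for 6 °C against 30 °C, 15 were higher and 51 lower in that comparison. Without 30 °C mice A and B 11 were lower, with 0 lower among the oligosaccharyltransferase subunits, 1 in magnesium transport and 0 among the annexins and S100 partners. No gene of the lists had a log2 fold change below -1.96 at 6 °C against 30 °C.

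The other subunits of the oligosaccharyltransferase went both ways. Of 11 tested, 3 were higher and 2 lower at 6 °C than at 30 °C, with a median log2 fold change of -0.02, and by total counts alone 0 were higher and 8 lower. Without any 1 of 30 °C mice A or B or 6 °C mice 1 or 3, 1 was lower. Magt1, the paralog that takes the place of Tusc3 in the same complex, was read at 71.3, 83.2, 78.5 and 83.7 CPM at 6 °C, against 75.4, 70.4, 70 and 61.7 CPM at 30 °C. Its log2 fold change was 0.19 (adjusted p = 0.0467, edgeR's quasi-likelihood test), a call lost in most alternatives and turned to -0.12 by total counts alone. Per length Tusc3 made up 74% ± 2.71 of the summed level of the pair at 30 °C, 26.4% ± 4.53 at 22 °C and 18% ± 1.01 at 6 °C (SD, n = 4 each). The order of the 2 genes was thus the reverse at 22 and 6 °C of that at 30 °C in every library. Stt3b, the catalytic subunit that works with either of them, averaged 186 ± 5.32 CPM at 6 °C and 138 ± 11.1 CPM at 30 °C (log2 fold change 0.44, adjusted p = 0.000311, edgeR's quasi-likelihood test; 0.12, adjusted p = 0.214, by total counts alone).

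Of the 21 genes that build the dolichol-linked sugar precursor for that enzyme, 10 were higher and 1 lower at 6 °C than at 30 °C, where 25.3% and 31.5% of all tested genes were. By total counts alone 3 were higher and 8 lower. Alg14 and Alg3, which encode sugar transferases of this route, had log2 fold changes of 0.80 and 0.79 (adjusted p = 1.47e-05 and 2.26e-05, edgeR's quasi-likelihood test). Among 13 genes of magnesium transport, 5 were higher and 4 lower, and by total counts alone 5 were higher and 7 lower. Without any 1 of 30 °C mouse 1 or 6 °C mice 3 or 4, 2 were lower. Cnnm2, which encodes a membrane protein of magnesium handling, rose to 85.4 ± 7.17 CPM at 6 °C, against 24 ± 3.18 CPM at 30 °C (log2 fold change 1.83, adjusted p = 8.06e-08). Mrs2, the magnesium channel of the inner mitochondrial membrane, had a log2 fold change of 1.00 (adjusted p = 1.35e-05).

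In the HSP70 family, 4 of 13 tested genes were higher and 1 lower at 6 °C than at 30 °C, where 25.3% and 31.5% of all tested genes were, and by total counts alone 4 were higher and 4 lower. At 6 °C against 22 °C 5 were higher and 0 lower, where 16.9% and 17.4% of all were. The 1 lower gene was lost without any 1 of 30 °C mice 2 or B or 6 °C mice 1 or 3, and the 5 became 3 without any 1 of 22 °C mice 1 or 2 or of the 6 °C mice. Hspa9, the mitochondrial HSP70, averaged 1680 ± 98.2 CPM at 6 °C and 725 ± 93.4 CPM at 30 °C (log2 fold change 1.21, adjusted p = 6.76e-07, edgeR's quasi-likelihood test). Hspa4 and Hspa4l, of the HSP110 branch, had log2 fold changes of 0.83 and 1.78 (adjusted p = 7.27e-06 and 1.55e-05). Hspa12b, the nearest paralog of Hspa12a and known from endothelial cells, averaged 64.7 ± 1.03 CPM at 6 °C and 67.8 ± 11.4 CPM at 30 °C (log2 fold change -0.07, adjusted p = 0.721, edgeR's quasi-likelihood test; -0.39, adjusted p = 0.0413, by total counts alone). It was lower at 22 °C, at 46.4 ± 10.8 CPM (-0.55 against 30 °C, adjusted p = 0.0107, edgeR's quasi-likelihood test), but at -0.35 and not called (adjusted p = 0.143) once 30 °C mice A and B were left out. Per length Hspa12a made up 29.6% ± 5.4 of the summed level of the pair at 30 °C, 21.1% ± 5.33 at 22 °C and 6.66% ± 0.548 at 6 °C.

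Of the other snoRNA host genes, 7 of 13 tested were lower at 6 °C than at 30 °C and 0 were higher, where 31.5% and 25.3% of all tested genes were. Their median log2 fold change was -0.56 where that of all tested genes was -0.11. By total counts alone 10 were lower and 0 higher. For 22 °C against 30 °C 2 were lower, and for 6 °C against 22 °C 8 were lower, or 5 without 6 °C mouse 2. Over all tested genes 22.8% and 17.4% were lower in the same comparisons. Gas5 averaged 27 ± 3.85 CPM at 6 °C and 45.1 ± 4.44 CPM at 30 °C (log2 fold change -0.74, adjusted p = 5.22e-05, edgeR's quasi-likelihood test). The largest fall among those named was Snhg18 at -1.05 (adjusted p = 6.31e-05). All of these were smaller than the -4.02 of Snhg11.

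Among 12 annexins and their S100 partners, 3 were higher and 3 lower at 6 °C than at 30 °C, and by total counts alone 0 were higher and 7 lower. Anxa5, the closest paralog listed, averaged 452 ± 13.9 CPM at 6 °C and 421 ± 44.4 CPM at 30 °C (log2 fold change 0.10, adjusted p = 0.307, edgeR's quasi-likelihood test), and total counts alone gave -0.22. Anxa2 averaged 371 ± 50 CPM at 6 °C and 259 ± 22.1 CPM at 30 °C (0.52, adjusted p = 0.00413; 0.20, adjusted p = 0.177, by total counts alone). S100a6 was lower at 6 °C, at 48.1 ± 8.22 CPM against 95.4 ± 42.4 CPM at 30 °C (-0.99, adjusted p = 0.00882), and at -0.30 (adjusted p = 0.1) without 30 °C mice A and B. Without mice A or B singly 1 of the 12 was lower.

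In the Myc, Max and Mxd network, 3 of 13 tested genes were higher and 3 lower at 6 °C than at 30 °C, and by total counts alone 3 were higher and 7 lower. Myc itself fell alongside Mycl. It was read at 6.13, 3.74, 2.97 and 2.89 CPM in 6 °C mice 1 to 4, against 21.2, 13.1, 12.9 and 14.1 CPM in 30 °C mice 1, 2, A and B. The groups did not overlap, and the log2 fold change was -1.96 (SE 0.24), with an adjusted p of 2.36e-05 by the same test. Myc was also lower at 22 °C in every library than at 30 °C (-0.74, adjusted p = 0.0189), a call lost without 30 °C mouse 1 (adjusted p = 0.0574) or without 22 °C mouse 1 (adjusted p = 0.0557). Mycn was the lowest of the 3, at 0.813 ± 0.134 CPM at 6 °C and 1.72 ± 0.442 CPM at 30 °C. Per length, Mycl at 4.07 RPKM and Myc at 5.65 overlapped at 30 °C, and at 6 °C Mycl at 0.449 lay below Myc at 1.45 in every library. Of the other network genes, Mlx, Mxi1 and Mlxipl rose, with log2 fold changes of 0.95, 0.70 and 1.11 at 6 °C against 30 °C (adjusted p = 3.74e-06, 2.2e-05 and 0.000937, edgeR's quasi-likelihood test).

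**Figure D3:**
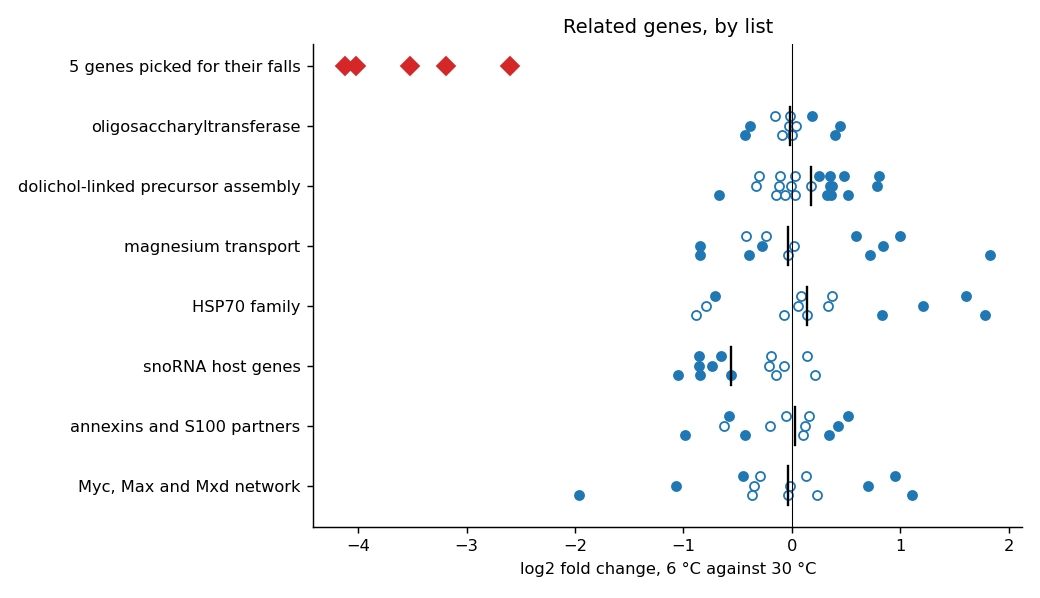
The log2 fold change of 6 °C against 30 °C for each tested gene of 7 related lists, filled where the adjusted p was under 0.05, with a black line at the list's median, and for the 5 genes (red diamonds). The lists spread on both sides of 0 and reach -1.96 at their lowest, above the -2.60 of Hspa12a.

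**Figure D4:**
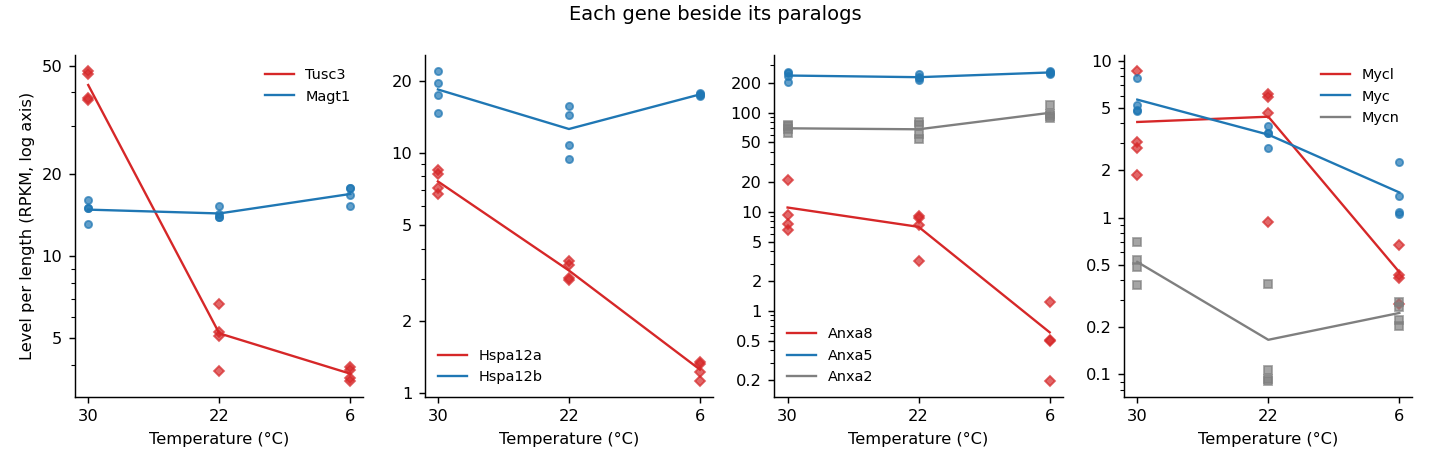
Level per length (RPKM, log axis) of each gene and its paralogs against temperature, from 30 to 22 to 6 °C, with 1 point per mouse and lines through the means of 4 mice. Tusc3 crosses below Magt1 at 22 °C, Hspa12a moves away from Hspa12b, Anxa8 drops while Anxa5 and Anxa2 stay near their 30 °C level or above it, and Mycl and Myc are both lowest at 6 °C.

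The genes next to the 5 on their chromosomes moved in both directions. Shtn1, 29702 bases from Hspa12a, was higher at 6 °C than at 30 °C, at 76.9 ± 6.74 CPM against 44.6 ± 3.61 CPM (log2 fold change 0.79, adjusted p = 4.07e-06, edgeR's quasi-likelihood test). Snhg11 lies between Snhg17, 14058 bases away and lower at 6 °C (-0.86, adjusted p = 0.000993), and Ralgapb, 23703 bases away and higher (1.02, adjusted p = 4.04e-07). On either side of Anxa8 the nearest tested genes were Gdf10 (-0.65, adjusted p = 0.0147) and Npy4r (-1.0, adjusted p = 0.0777). Mycl lies between Mfsd2a, which encodes a lipid transporter and rose to 37.7 ± 24 CPM at 6 °C, against 0.656 ± 0.356 CPM at 30 °C (5.86, adjusted p = 0.000772), and Trit1 (-0.18, adjusted p = 0.312). At 6 °C against 22 °C, where Mycl fell, Trit1 was lower (-0.75, adjusted p = 0.00199, same test) and Mfsd2a higher (3.11, adjusted p = 0.0175). Trit1 was higher at 22 °C than at 30 °C (0.57, adjusted p = 0.00581), a call lost by total counts alone (0.32, adjusted p = 0.0731). Within 250000 bases no neighbour of Tusc3 was tested, and of 8, 5 and 9 tested near Snhg11, Anxa8 and Mycl 2, 1 and 2 were higher and 4, 3 and 3 lower at 6 °C than at 30 °C. Over all tested genes 25.3% were higher and 31.5% lower in that comparison.

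Markers of other cell types also moved with temperature, and their part in the falls was not tested. Over all tested genes 22.8% were lower at 22 °C than at 30 °C. Beside the lower 22 °C levels of Tusc3 and Hspa12a, the summed level of 8 macrophage markers was 429.1 to 1434 CPM at 30 °C, 108.6 to 162.5 CPM at 22 °C and 198.9 to 408.8 CPM at 6 °C, with 7 of 8 lower at 22 °C than at 30 °C. That of 8 fibroblast and preadipocyte markers was 2183 to 4080 CPM at 30 °C, 884.6 to 1256 at 22 °C and 714.4 to 884.4 at 6 °C, with 6 of 8 lower. Markers of T and natural killer cells summed to 9.044 to 16.81 CPM at 30 °C, 2.504 to 3.95 at 22 °C and 1.364 to 3.343 at 6 °C, with 6 of 6 tested lower at 22 °C than at 30 °C. The 6 endothelial markers summed to 1052 to 1267 CPM at 30 °C, 718.4 to 841.3 at 22 °C and 795 to 881.2 at 6 °C, with 5 of 6 lower at 22 °C than at 30 °C. The 6 markers of pericytes and smooth muscle summed to 802 to 1021 CPM at 30 °C, 641.1 to 725.3 at 22 °C and 631 to 676.1 at 6 °C, with 2 of 6 lower and 1 higher at 22 °C than at 30 °C. These 5 sums and that of the dendritic cell markers, 6 of 15 lists in all, lay below their 30 °C range in every 22 °C library, as Tusc3, Hspa12a and Snhg11 did. Single genes made up much of some sums. Lyz2, of the macrophage list, was at 207 to 878 CPM at 30 °C and 45.1 to 66.6 at 22 °C. Col3a1, of the fibroblast list, was at 1350 to 2630 and 436 to 681 CPM at these temperatures. Rgs5, of the pericyte list, was at 583 to 758 and 427 to 483 CPM.

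Beside Mycl, which marks dendritic cells among immune cells, the 8 dendritic cell markers summed to 53.8 to 84.25 CPM at 30 °C, 37.14 to 41.39 at 22 °C and 31.11 to 39.58 at 6 °C. A large part of this sum was Zbtb46, at 36.9 to 44.1 CPM at 30 °C, 31.8 to 34.4 at 22 °C and 24 to 29.5 at 6 °C. All 8 markers were lower at 22 °C than at 30 °C, and for 6 °C against 22 °C 1 was lower and 1 higher. Over all tested genes 17.4% were lower and 16.9% higher at 6 °C than at 22 °C. At 6 °C against 30 °C 31.5% of all were lower and 25.3% higher, the shares to set beside the lists below. Beside the late falls of Snhg11, Anxa8 and Mycl, 6 white adipocyte markers summed to 148.6 to 217.2 CPM at 30 °C, 161.5 to 315.7 at 22 °C and 75.73 to 153.7 at 6 °C. Of 5 tested, 2 were lower and 0 higher at 6 °C than at 22 °C. At 6 °C against 30 °C 2 were lower and 1 higher. Markers of adipocytes of any kind summed to 9451 to 10500 CPM at 30 °C, 14190 to 14640 at 22 °C and 12640 to 13210 at 6 °C, a sum higher at 6 °C than at 30 °C in every library. Of these 6 markers 3 were higher and 2 lower at 6 °C than at 30 °C, and 0 higher and 2 lower at 6 °C than at 22 °C. Fabp4, the largest of them, was at 5750 to 6190 CPM at 30 °C and 8570 to 9560 at 6 °C. Adipoq went from 957 to 1210 CPM at 30 °C to 549 to 672 at 6 °C, and Cebpa from 765 to 937 to 529 to 748. Neuron markers, for Snhg11 as a transcript best known from brain, summed to 2.678 to 3.776 CPM at 30 °C, 2.474 to 3.278 at 22 °C and 4.791 to 5.148 at 6 °C. Most of this sum was Stmn2, at 2.33 to 3.03 CPM at 30 °C, 1.89 to 2.8 at 22 °C and 3.57 to 4.39 at 6 °C. Only 2 of the 8 neuron markers passed the filter on low counts. Dbh was at 0 counts at 30 and 22 °C and Elavl4 at 0 at 30 and 6 °C. Markers of keratinocytes and squamous epithelium, where annexins such as Anxa8 are known, summed to 3.907 to 4.884 CPM at 30 °C, 5.146 to 5.778 at 22 °C and 3.938 to 6.485 at 6 °C, with Krt5 at 0 counts at 30 and 6 °C. Of 3 tested, 1 was higher and 1 lower at 6 °C than at 30 °C, and 0 higher and 1 lower at 6 °C than at 22 °C. Krt10, a large part of the sum, was at 1.61 to 2.34 CPM at 30 °C and 2.6 to 4.91 at 6 °C. Trp63 was at 0.567 to 0.989 CPM at 30 °C, 0.643 to 1.7 at 22 °C and 0.0354 to 0.682 at 6 °C. For neither the neuron nor the keratinocyte sum did the 6 °C range lie below that of 30 °C.

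**Figure D5:**
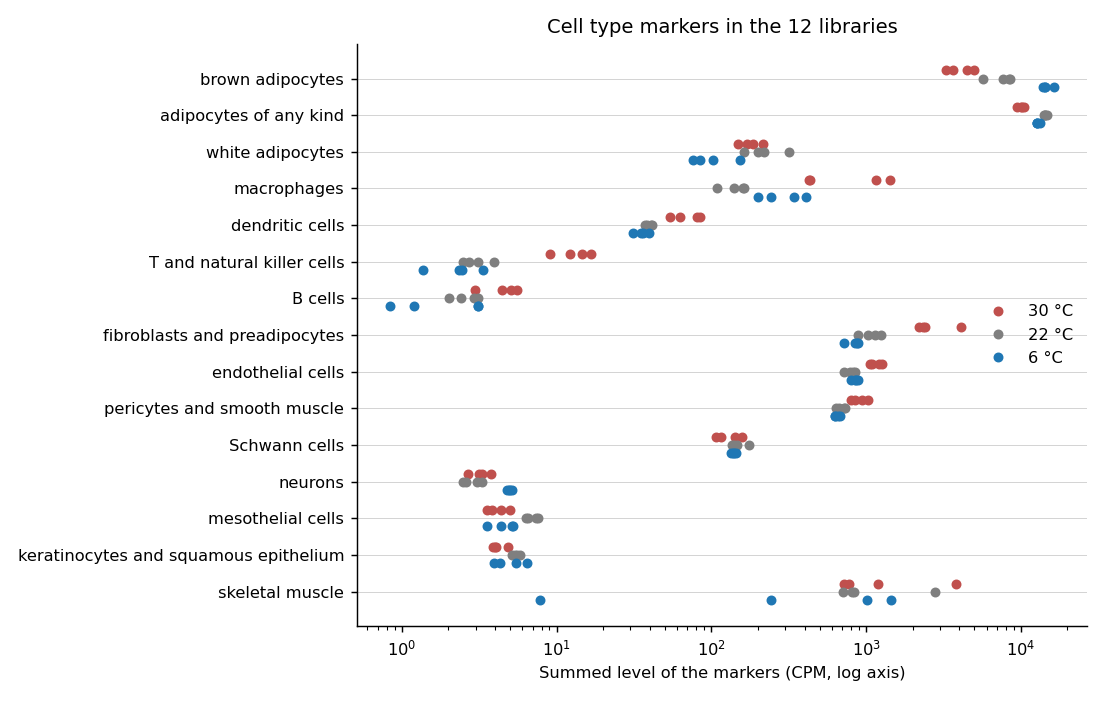
Summed level (CPM, log axis) of the markers of 15 cell types in each of the 12 libraries, 1 point per mouse, with 30 °C above 22 °C above 6 °C in each row. Macrophage, T cell, dendritic cell, fibroblast, endothelial and pericyte markers are highest at 30 °C, brown adipocyte markers are highest at 6 °C (13950 to 16420 CPM), and skeletal muscle markers vary most between libraries of one temperature.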

How the data were processed

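The data are raw counts per Ensembl gene, deposited by the authors as 1 table of 12 libraries. Tools named per the submitters' processing notes, without roles, are STAR 2.4.2a, FastQC 0.10.1 and edgeR 3.14.0, and the builds are GRCm38 and mm10. How reads were counted, on which annotation and with what strand setting is not given in the sources used here. GENCODE M21 matched 96.6% of the 38924 identifiers and gave positions and the exon lengths behind RPKM values.

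The quasi-likelihood test of edgeR 4.0.16 (R 4.3.3) was run two-sided after filterByExpr by temperature and TMM, with robust glmQLFit on 1 factor of 3 temperatures. The Benjamini-Hochberg adjustment covered 14870 genes, with a threshold of 0.05. SEs were taken as the absolute log2 fold change over the square root of F. Log2 CPM values carry a prior count of 2. The steps were tested on simulated data. Libraries of one temperature differed by at least 20.9 in chi-square per degree of freedom, so each was counted as its own sample. Errors cover the spread between mice.

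The 5 genes, the related lists and the markers were chosen with earlier results of these data known. Other genes named are the 3 nearest profiles of each of the 5, the nearest paralogs, up to 4 genes of each list with the smallest p at 6 °C against 30 °C, the adjacent tested neighbours and Ucp1. That rule gave 51 genes, of which some are printed. Genes that overlap one of the 5 are named beside it. Single markers are named for some lists only, where they are at 0, make up much of a sum or go against it. Settings also tried were scaling by RLE, by upper quartile or by total counts, no filter or 1 CPM in 4 libraries, DESeq2 1.42.0, limma 3.58.1 voom, the mouse number as a block, each library left out, 30 °C mice A and B left out together, the deep library left out, and only the 2 temperatures compared.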

Additional observations from a re-analysis of the deposited data

Results flagged for a closer look

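In 63 groups of 4 libraries, the level of each of the 5 genes, of Ucp1 and of the summed markers of 15 cell types was checked for a library standing far from the other 3, which chance alone gives in about 1 group in 20. None of the 15 groups of the 5 genes was singled out, and 6 groups of marker sums were. The summed skeletal muscle markers reached 3812 CPM in 30 °C mouse 1, against 717.4 to 1187 CPM in the other 30 °C mice, and 2800 CPM in 22 °C mouse 4, against 707.1 to 840 CPM in the other 22 °C mice. Fibroblast and preadipocyte markers summed to 4080 CPM in 30 °C mouse B, against 2183 to 2403 CPM in the others. Brown adipocyte markers summed to 16420 CPM in 6 °C mouse 3, against 13950 to 14310 CPM, and markers of adipocytes of any kind to 13210 CPM in 6 °C mouse 2, against 12640 to 12690 CPM. Keratinocyte and squamous markers summed to 4.884 CPM in 30 °C mouse A, against 3.907 to 4.066 CPM. In the library highest for muscle markers at 30 °C, mouse 1, Anxa8 was also highest (39 CPM), and in 30 °C mouse A Mycl was highest (34.9 CPM). In 22 °C mouse 4, also singled out for muscle markers, Anxa8 was at 13.7 CPM, below the 16.9 and 16.3 CPM of 22 °C mice 2 and 3. Whether these levels go together was not tested.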

How the results depend on the processing

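Of 455 values of the 5 genes under the alternatives, 444 stayed within 1 SD of the spread between mice, 9 moved by more and 2, both for the difference of the steps of Hspa12a, turned sign. Mycl at 22 °C against 30 °C, 0.12 as reported, also took the other sign in 6 of 23 alternatives, within that SD. Total counts alone gave -3.83 for Tusc3, -2.92 for Hspa12a and -4.34 for Snhg11 at 6 °C against 30 °C, and -1.49 for Hspa12a at 22 °C against 30 °C, where the median of all genes also moved down. The difference of the steps of Hspa12a was 0.05 with total counts alone, 0.02 with the replicate block and 0 without 30 °C mice A and B. With each library left out in turn it ran from 2.29 to 2.81 for Tusc3 and from -2.54 to -1.88 for Snhg11. For related genes, total counts alone gave 15 higher and 51 lower at 6 °C against 30 °C, 9 and 41 at 22 °C against 30 °C, and 20 and 4 (12 and 9 as reported) for the difference of the steps. It also turned Magt1 to -0.12 and Anxa5 to -0.22 at 6 °C against 30 °C, and Anxa7 to -0.08 at 22 °C against 30 °C. Over all genes the lower share of the calls at 6 °C against 30 °C was 55.4% and became 80.3%. Without 30 °C mice A and B 11 related genes were lower at 6 °C and 8 at 22 °C against 30 °C. Related genes higher at 6 °C than at 22 °C ran from 13 (without 6 °C mouse 2) to 22 with each library left out. The cause of these shifts was not tested.

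Whether the mouse numbers pair the samples could not be settled. Of 8 same-numbered pairs 4 deviated together with r over 0.1 (range -0.04 to 0.35, median 0.08). Differently numbered pairs ranged from -0.43 to 0.43 (median -0.05). At 30 °C only mice 1 and 2 are numbered, so their deviations mirror each other and their pairs are not independent. The replicate block could be fitted only on the 10 numbered libraries, so without 30 °C mice A and B. It called 3245 genes at 22 °C against 30 °C (4454 in the same 10 libraries without the block, 6634 in all 12) and 2468 for the difference of the steps (3376 and 4353). Of related genes 8 were lower at 6 °C against 30 °C (11 in the same 10 without the block), 12 higher and 3 lower at 22 °C against 30 °C (16 and 8), and 7 higher for the difference of the steps (11). Hspa12a had -1.38 at 22 °C against 30 °C (-1.36). Precision is limited for Anxa8 at 6 °C by counts as low as 7, and for Mycl by the spread between mice.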
